A study of Mus musculus with 4 samples.

Results

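The stathmins are 4 related genes, Stmn1, Stmn2, Stmn3 and Stmn4, whose levels were followed in limb and brain of WT mouse embryos and of embryos with conditional ablation of Rest. They were chosen by name: every probe that the scanner files name Stmn1, Stmn2, Stmn3 or Stmn4 was taken, which gave 6 of the 41174 probes on the array and 4 of its 27630 genes or unnamed transcripts. Stathmins bind tubulin dimers and promote the disassembly of microtubules, and phosphorylation weakens that binding. Stmn1 is a soluble cytosolic protein of many cell types, abundant in dividing cells, whereas Stmn2 (SCG10), Stmn3 (SCLIP) and Stmn4 (RB3) are mainly neuronal and carry an extension that anchors them to Golgi and vesicle membranes. REST is a zinc-finger repressor that silences neuronal genes outside the nervous system, and Stmn2 was among the genes in which its binding element was originally described.

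Total RNA was measured on 1-colour arrays at E13.5 (embryonic day), in limb and in brain of WT and of CKO embryos, with 1 array for each of these 4 samples. WT is wild type and CKO is the Rest conditional KO, in which Rest-floxed alleles are cut by a doxycycline-inducible Cre. Doxycycline over E8.5-E13.5 and a mixed 129 and C57BL/6 background are recorded for all 4 samples, WT included. The promoter and cell types that drive Cre, and whether an RNA came from 1 embryo or several, are not given in the sources used here.

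With 1 array per group there are no replicates, so a CKO minus WT difference within a tissue has no test. Levels are given as background-subtracted intensity and as normalized log2 signal, where the 75th percentile of an array is set to 0; levels of different probes cannot be set against each other, so the genes are compared by their differences alone. The error that the arrays give is technical: 245 probes are printed 10 times on each array, and the SD given after a difference is that of a single-spot difference among the 30 such probes nearest in level. It covers neither labelling nor differences between embryos. Repeats compared only at the same position on both arrays spread less, with an SD of 0.019 in brain and 0.021 in limb for the probes nearest to Stmn1. Statements that a small difference lies within the technical SD therefore hold for the wider SD only. In brain those nearest probes lay at 1.99 to 7.36 log2, below Stmn1 at 8.44 (WT) and 8.34 (CKO). Stmn1, Stmn3 and Stmn4 have the same SDs there, which are not specific to the level of each. A 2nd measure is how far probes of the same gene disagree, a median of 0.09 log2 in limb over 6093 genes and 0.08 in brain over 6356 genes for CKO minus WT. A signal that the scanner software did not call well above background gives only a bound, computed against the array's lowest signal well above background and written "at least".

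The 4 arrays had from 62.7% to 70.7% of 43379 non-control spots well above background. Rest was lower in CKO at each of its 3 probes in both tissues, from 1.88-fold to 17.2-fold, the brain value of 1 probe being a bound of at least 6.60-fold. The tissue labels were checked with marker lists. All 10 neuronal markers were at least 2-fold higher in brain than in limb, in WT and in CKO. All 7 skeletal muscle markers were at least 2-fold lower in brain. In WT, 8 of 9 limb mesenchyme markers could be compared, and all 8 were at least 2-fold lower in brain.

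The first 30 of the 60 bases of each probe are shown, 5′ to 3′, because the 2 probes of Stmn2 read different transcripts and those of Stmn1 lie apart on its transcript; positions in the files are on mm9.
Stmn1, chr4:134029522-134029581, plus strand: taatgtagctatttttctcgttgcatcttt
Stmn1, chr4:134026685-134026744, plus strand: cccaaagaagaaggacctttccctggagga
Stmn2, chr3:8561261-8561320, plus strand: agctggttgctgcattaaaaacacaaacaa
Stmn2, chr3:8547585-8547644, plus strand: cattcagccattgattttgtttttctattg
Stmn3, chr2:181041396-181041455, minus strand: cagcggcgacaagaacgttttcgggttttg
Stmn4, chr14:66980442-66980501, plus strand: cgggtgggataaggtctgtgtgcgtctgtt
The longest run that any of these 60-base probes shared with another, on either strand, was 11 bases. Matches to transcripts of other genes are not reported, and the files list a further RefSeq record for each Stmn1 probe. The Stmn1 probes start 2837 bases apart. The Stmn2 probes start 13676 bases apart: the one at 8561261 is assigned to the Stmn2 RefSeq transcript and the one at 8547585 to a single cDNA clone. An mm9 annotation was not used here, so exon and UTR positions are not given. Each probe was printed once per array, and none of the 6 was saturated or flagged as an outlier on any array.

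**Figure D1:**
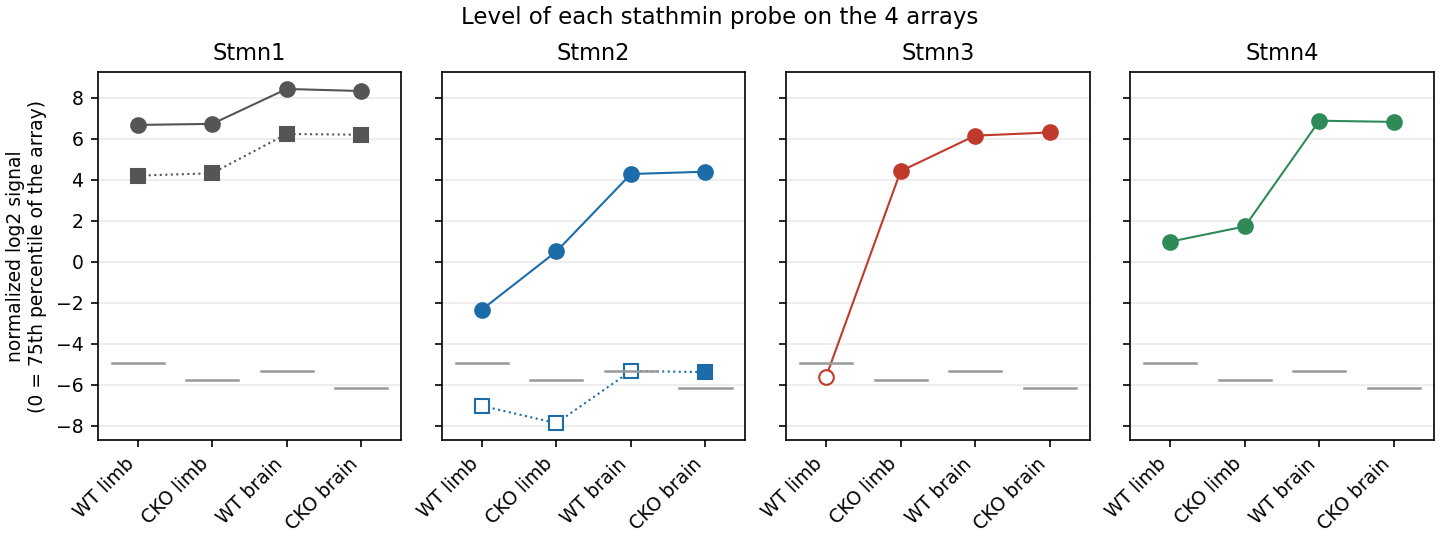
Normalized log2 signal (the 75th percentile of an array is 0) of each stathmin probe on the 4 arrays, 1 panel per gene. Circles are the brightest probe of a gene and squares its other probe; open symbols were not well above background, and grey bars are each array's lowest signal well above background. Stmn3 goes from -5.62 in WT limb to 4.42 in CKO limb, whereas Stmn1 is at 6.68 and 6.73 there.

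Stmn3 was dark in WT limb and bright in CKO limb. In limb its intensity was 15.8 (WT) and 19888 (CKO), and in brain 64250 (WT) and 79646 (CKO), which is -5.62, 4.42, 6.16 and 6.31 as normalized log2 signal in the same order. WT limb stood apart from the other 3 arrays and was the only one where the probe was not well above background. Stmn3 was at least 662-fold higher in CKO limb than in WT limb (at least 9.37 log2, SD 0.079), and 0 of the 18451 genes compared in limb had a higher difference. That SD is from probes at -1.22 to -0.0037 log2, a level that Stmn3 had on neither limb array. The size of the bound depends on how background is handled: it was at least 7.52 log2, or 183-fold, with normexp background correction. The normexp setting also added an offset of 50 to every signal, which by itself lowers folds of dim spots.

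Stmn2 had a low signal in WT limb and a higher one in CKO limb. At its brightest probe the limb intensity was 153 (WT) and 1311 (CKO) and the brain intensity 17536 (WT) and 21094 (CKO), or -2.34, 0.50, 4.28 and 4.40 log2. The order of the arrays was that of Stmn3, but CKO limb remained far below both brain arrays. Stmn2 was 7.15-fold higher in CKO limb than in WT limb (2.84 log2, SD 0.084), with 107 of 18451 genes above it. The other Stmn2 probe, on the cDNA clone, was not well above background in WT limb, CKO limb or WT brain. In CKO brain it was just called above background at an intensity of 23.9, against 22.3 in WT brain, so it gives no limb difference and a brain bound of 0.

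Stmn4 was above background on every array, and CKO limb was modestly higher than WT limb. The limb intensity was 1534 (WT) and 3061 (CKO) and the brain intensity 106516 (WT) and 113846 (CKO), or 0.98, 1.72, 6.89 and 6.83 log2. Both limb arrays were low and both brain arrays high. The limb difference was 1.67-fold (0.74 log2, SD 0.064), under the 2-fold size counted, and 649 of 18451 genes had a higher one.

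Stmn1, the widely expressed member, was bright on every array. At its brightest probe the limb intensity was 79684 (WT) and 98636 (CKO) and the brain intensity 312097 (WT) and 323827 (CKO), or 6.68, 6.73, 8.44 and 8.34 log2. The limb difference was 0.05 log2 (SD 0.061), within 1 technical SD, beyond 2 same-position SDs, and within the quartiles of all genes, -0.15 and 0.08. The other Stmn1 probe was at 4.20 (WT) and 4.32 (CKO) in limb and at 6.24 (WT) and 6.20 (CKO) in brain, a limb difference of 0.12 log2 (SD 0.061). That value lay above the upper quartile of all genes, within 2 technical SDs but beyond 2 same-position SDs (0.022). The probes of Stmn1 thus differed by 0.06 log2 in their limb values, less than the median gap between probes of a gene.

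At least 2-fold higher in CKO limb were 2 of the 4 stathmins, Stmn2 and Stmn3, and 0 were at least 2-fold lower. Over the 18451 genes with a limb value, 460 genes (2.49%) passed that size upwards and 398 (2.16%) downwards; with normexp the split was 286 and 144. The median of the 4 limb differences lay between 0.74 for Stmn4 and 2.84 for Stmn2, beside -0.02 log2 for all genes. Relative to Stmn1, the CKO minus WT difference in limb was greater by 0.69 log2 for Stmn4 (SD 0.089), by 2.79 for Stmn2 (SD 0.10) and by at least 9.32 for Stmn3 (SD 0.10). Each of the 3 neuronal members therefore differed from Stmn1 in limb by more than the technical spread, and the sizes ran over a wide range.

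In brain, each of the 4 stathmins differed little between CKO and WT. The difference was -0.10 log2 for Stmn1 (SD 0.061), 0.11 for Stmn2 (SD 0.062), 0.16 for Stmn3 (SD 0.061) and -0.06 for Stmn4 (SD 0.061). Of the 4, 0 were at least 2-fold different in either direction, where 1.37% of 18947 genes passed that size upwards and 1.22% downwards. Relative to Stmn1 the brain difference was greater by 0.21 log2 for Stmn2, 0.26 for Stmn3 and 0.04 for Stmn4, each with an SD of 0.086. Relative to Stmn1, Stmn2 and Stmn3 thus lay beyond 2 technical SDs in brain, and Stmn4 within 1. For the CKO minus WT difference itself, Stmn3 alone exceeded 2 technical SDs in brain, and all 4 exceeded 2 same-position SDs (0.019). The order of the levels was WT brain, CKO brain, CKO limb and WT limb for Stmn1 and Stmn4, and CKO brain, WT brain, CKO limb and WT limb for Stmn2 and Stmn3. Neighbours within 2 technical SDs of each other were the brain arrays for Stmn1, Stmn2 and Stmn4, and the limb arrays for Stmn1 only; by the same-position SD none of these lay within 2 SDs at the brightest probe.

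**Figure D2:**
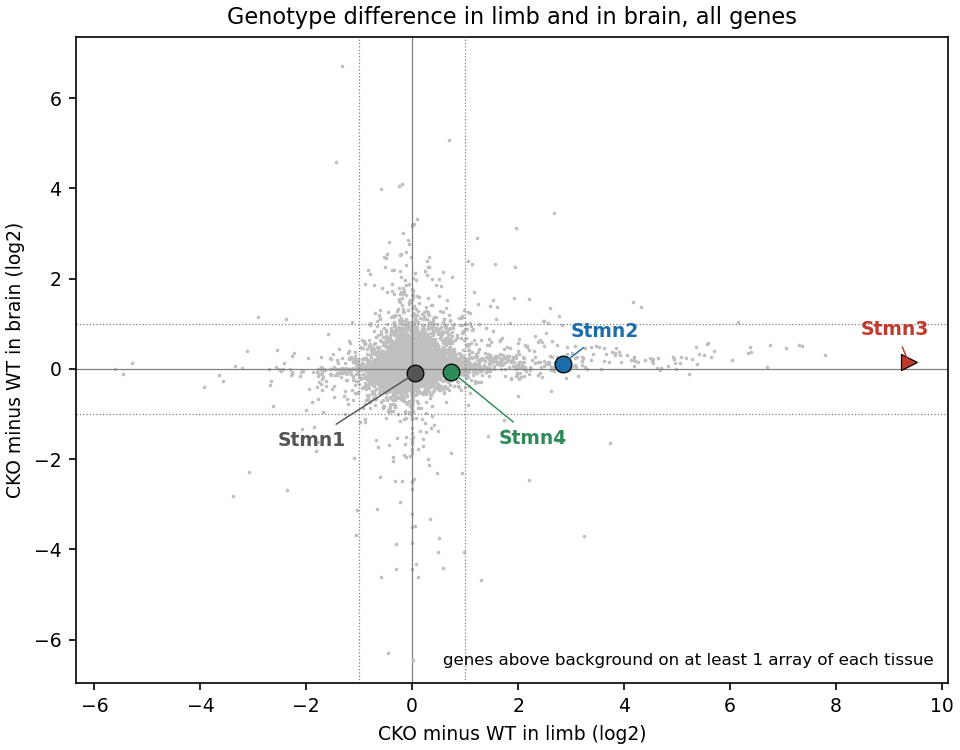
CKO minus WT difference in limb (x axis, log2) against that in brain (y axis, log2); each grey point is a gene above background on at least 1 array of each tissue, and dotted lines mark 2-fold. Stmn3 (triangle, a lower bound of 9.37 in limb) and Stmn2 (2.84) lie far to the right at brain values of 0.16 and 0.11. Stmn1 (0.05 in limb) lies near the centre, and Stmn4 (0.74) to its right, under 2-fold.

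The limb difference minus the brain difference was at least 9.21 log2 for Stmn3 (SD 0.10), 2.73 for Stmn2 (SD 0.10), 0.80 for Stmn4 (SD 0.089) and 0.15 for Stmn1 (SD 0.086). The Stmn1 probe at 134026685 gave the same 0.15. Each is 1 value from 4 arrays and has no test. The same numbers are the amount by which the gap between brain and limb was smaller in CKO than in WT.

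The brain stood above the limb for all 4 genes, by very different amounts. In WT the gap was 3.38-fold for Stmn1 (1.76 log2, SD 0.065), 59.9-fold for Stmn4 (5.91 log2, SD 0.066), 98.6-fold for Stmn2 (6.62 log2, SD 0.073) and at least 2203-fold for Stmn3 (at least 11.11 log2, SD 0.073). All 4 exceeded 2-fold, as did 15.8% of 18436 genes in that direction, and 18.8% lay 2-fold lower in brain. With normexp the Stmn3 bound was 599.7-fold. In CKO the gap was 3.04-fold for Stmn1, 34.4-fold for Stmn4, 14.9-fold for Stmn2 and 3.71-fold for Stmn3. All 4 again exceeded 2-fold, as did 15.1% of 19707 genes, and 16.9% lay 2-fold lower in brain. In CKO, the gap of Stmn3 (1.89 log2, SD 0.060) came within 0.29 log2 (SD 0.084) of that of Stmn1 (1.60 log2, SD 0.060), whereas in WT they lay at least 9.35 log2 apart. Stmn4 kept a gap of 5.11 log2 (SD 0.060).

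Set against WT brain, the level in CKO limb was 30.7% for Stmn1, 30.05% for Stmn3, 7.26% for Stmn2 and 2.79% for Stmn4. Stmn3 and Stmn1 differed there by -0.03 log2 (SD 0.084), within the technical SD, and Stmn4 had the lowest share. All 4 were at least 2-fold lower in CKO limb than in WT brain, as were 16.4% of 19073 genes, while 0 of the 4 and 16.5% of all were at least 2-fold higher.

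**Figure D3:**
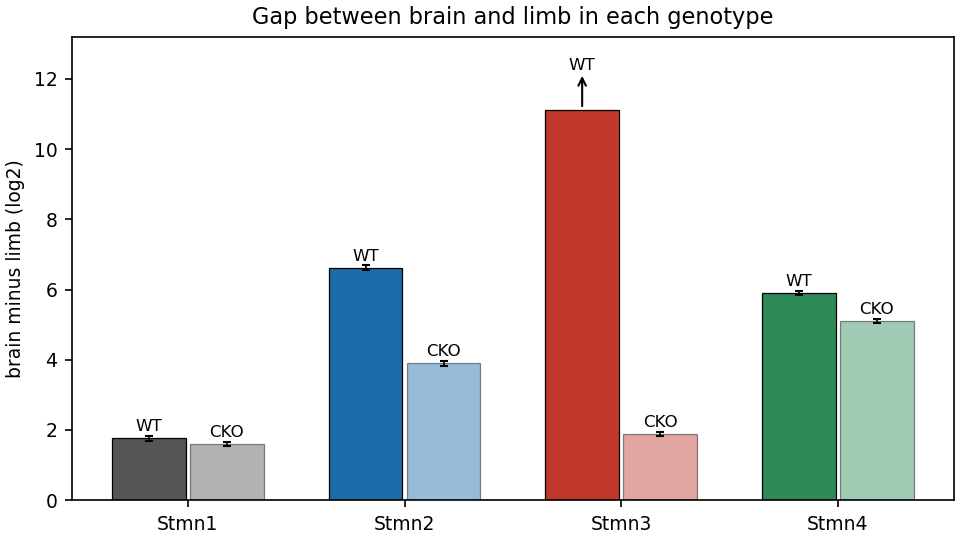
Brain minus limb difference (log2) of each stathmin in WT (full colour) and CKO (pale); error bars are 1 technical SD and the arrow marks a lower bound. The gap of Stmn3 goes from at least 11.11 in WT to 1.89 in CKO, that of Stmn2 from 6.62 to 3.90, that of Stmn4 from 5.91 to 5.11 and that of Stmn1 from 1.76 to 1.60.

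A model over all 4 arrays allowed a test of what the 2 genotypes, or the 2 tissues, share. It was fitted with limma to 15630 genes, those that every array measured above background and without saturation, with Benjamini-Hochberg adjustment; its residual, with 1 degree of freedom, is the difference between tissues or genotypes itself. Stmn3 was left out because it was not well above background in WT limb. Brain was higher than limb for Stmn1 by 1.68 log2 (SE 0.072, limma adjusted p = 0.0061), for Stmn4 by 5.51 (SE 0.26, limma adjusted p = 0.0063) and for Stmn2 by 5.26 (SE 0.86, limma adjusted p = 0.025). The direction held in both genotypes for each, and 32.2% of all genes tested were called higher in brain and 34.4% lower. The call of Stmn2 was lost when all genes above background on at least 1 array were fitted, with a limma adjusted p of 0.054. That wider fit held Stmn3, with its deposited WT limb signal that was not well above background, and did not call it. The limma adjusted p of Stmn3 was 0.22 for tissue (6.83 log2, SE 3.43) and 0.76 for genotype (5.10 log2, SE 3.43).

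For CKO against WT over both tissues, limma called 0 genes (0.0%) in either direction, with 984 at an unadjusted p under 0.05. The estimate was -0.02 log2 for Stmn1 (SE 0.072, limma adjusted p = 0.91), 0.34 for Stmn4 (SE 0.26, limma adjusted p = 0.68) and 1.48 for Stmn2 (SE 0.86, limma adjusted p = 0.66). In this fit the SE comes from how unequal the limb and brain differences of a gene are. Limma moderates it with the spread of all genes tested, so the SE and p also rest on other genes.

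The other genes of microtubule regulation were taken from 3 lists. Tubulins, the substrate of stathmins, were named on the array for 12 of 13 genes listed. In limb, 1 of the 12 was at least 2-fold higher, 0 were lower, and the median was 0.18 log2. Tubb3, the neuronal beta-tubulin, was at -1.76 in WT limb and 0.87 in CKO limb, 6.19-fold higher, and differed by -0.02 log2 in brain. In brain, 0 of 12 were at least 2-fold different and the median was -0.02. Several alpha- and beta-tubulin genes are near-identical copies whose transcripts may share a probe.

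Kinases, a phosphatase subunit and binding partners of stathmins numbered 20, of which 19 could be compared in limb and 20 in brain. In limb, 0 of 19 were at least 2-fold different, with a median of 0.06 log2. Cdk5r1, the activator of the neuronal kinase Cdk5, was 1.90-fold higher in CKO limb. In brain the median was -0.06, with 1 of 20 at least 2-fold higher and 1 lower. Uhmk1, a kinase that phosphorylates stathmin, was at -2.604 in WT brain and -5.64 in CKO brain, 8.21-fold lower, and was below background on both limb arrays. The stress-activated kinase Mapk13 was 2.53-fold higher in CKO brain, from -4.16 to -2.82. Uhmk1 and Mapk13 each rest on 1 dim probe.

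Of 24 other microtubule regulators, 1 passed 2-fold upwards in CKO limb and 0 downwards, beside a list median of 0.11 log2. That gene was Crmp1, a tubulin-binding phosphoprotein of growing axons, at -0.20 in WT limb and 3.06 in CKO limb, 9.59-fold higher. Doublecortin (Dcx), which stabilizes microtubules of migrating neurons, was 1.998-fold higher, just under the size counted, and its next brightest probe 1.90-fold higher. Map1b was 1.89-fold higher in CKO limb and 1.61-fold higher in CKO brain at its brightest probe, but its other probe differed by 0.09 and -0.03 log2. Tau (Mapt), the axonal microtubule protein, differed by 0.06 log2 in limb. In brain, 0 of 24 were at least 2-fold different and the median was -0.07.

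**Figure D4:**
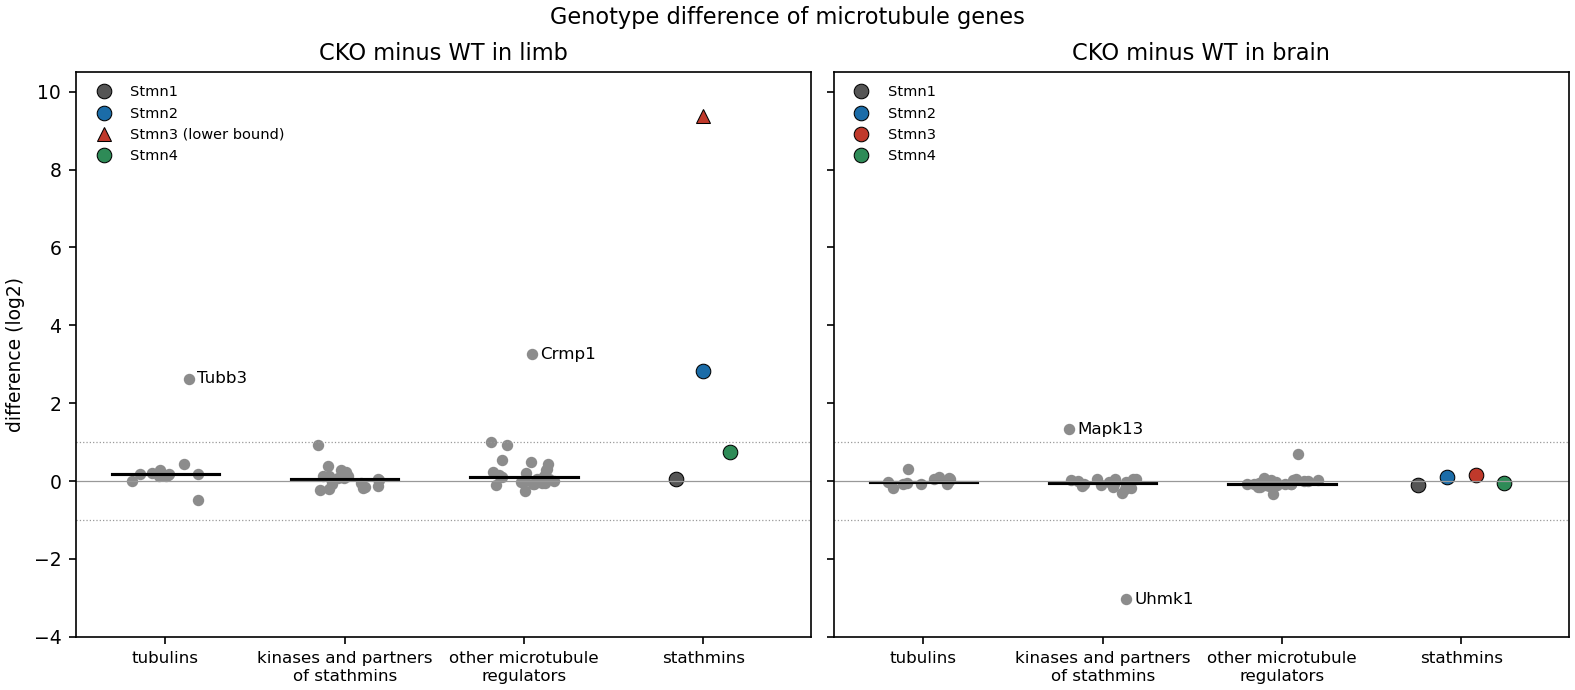
CKO minus WT difference (log2) in limb (left) and brain (right) for tubulins, kinases and partners of stathmins, other microtubule regulators and the 4 stathmins; each point is a gene, black bars are list medians, dotted lines mark 2-fold and the triangle is a lower bound. In limb Tubb3 (2.63), Crmp1 (3.26), Stmn2 (2.84) and Stmn3 (at least 9.37) lie above 2-fold; in brain Mapk13 (1.34) and Uhmk1 (-3.04) lie outside it.

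Limb samples hold nerves as well as mesenchyme and muscle, and in bulk RNA a change in the number of cells of a type and a change in RNA per cell cannot be told apart. Of 10 neuronal markers, 3 passed 2-fold upwards in CKO limb, beside a list median of 0.73 log2, and the list's summed linear level was 17.6 in WT limb and 21.0 in CKO limb, against 389 in WT brain and 374 in CKO brain. Uchl1, at 3.75 log2 on both limb arrays, made up most of the limb sums, and without it they were 4.14 in WT and 7.51 in CKO. Signals of different probes have no common scale, so a summed level is weighted to bright probes and gives no amount of a cell type. Sums without the brightest gene are given for the neuronal markers and the forebrain markers only. Elavl3, a neuronal RNA-binding protein, was not well above background in WT limb and at least 25.8-fold higher in CKO limb. The other 9 were above background on all arrays, with Ina 3.46-fold, Rbfox3 3.25-fold and Elavl4 1.68-fold higher in CKO limb. Dcx was 1.998-fold, Nefl 1.64-fold, Map2 1.36-fold, Gap43 1.08-fold and Mapt 1.04-fold higher there, and Uchl1 differed by -0.0016 log2. Schwann cell and neural crest markers had a limb median of 0.12 with 0 of 6 at least 2-fold different, and summed to 4.24 in WT limb and 4.71 in CKO limb. Forebrain and progenitor markers were above background for 2 of 6 in WT limb and 3 of 6 in CKO limb, with sums of 1.27 and 1.16. The part of these markers in the stathmin differences was not tested.

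Cycling cell markers, which bear on Stmn1 as a gene of dividing cells, had a median difference of -0.02 log2 in both tissues, with 0 of 12 at least 2-fold different. All 12 were lower in brain than in limb in both genotypes, with a median of -0.68 in WT and -0.74 in CKO, while both Stmn1 probes were higher in brain. Skeletal muscle markers had a limb median of 0.53, 0 of 7 at least 2-fold different and sums of 154 in WT limb and 212 in CKO limb. Limb mesenchyme markers had a limb median of -0.06 with 0 of 8 at least 2-fold different, and cartilage markers one of -0.22 with 0 of 5. In CKO brain, cartilage markers were at least 2-fold higher for 5 of 6, limb mesenchyme markers for 1 of 5 and muscle markers for 1 of 6. Among them the cartilage matrix genes Col9a1 and Acan were 33.7-fold and 16.6-fold higher; the part of this in the small stathmin differences in brain was not tested.

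The genes whose 4 values followed each stathmin most closely were found among 16307 genes with a current symbol, by the root mean square distance between their values, each gene centred on its own mean over the 4 arrays. A value below an array's lowest signal well above background was set to that signal, which was the case for Stmn3, Syt4, Ap3b2 and Dynlrb2 in WT limb. Tunar and Slc10a4 were also not well above background on 1 array, and distances and ranks that rest on any of these values are not exact. Closest to Stmn2 was the synaptotagmin gene Syt4 at 0.04 log2, then Tunar at 0.09 and the G protein subunit gene Gnao1 at 0.11. For Stmn4 it was the neuronal vesicle gene Nsg2 at 0.04, then Slc10a4 and Dynlrb2, each at 0.12. For Stmn1 it was Them4 at 0.02, then Snn at 0.02. The nearest gene to Stmn3 was Ap3b2, at 0.93, followed by Celf3 at 0.97 and Chgb at 0.99. These distances rest on 4 arrays and describe the profiles. Among the stathmins, Stmn2 and Stmn4 were the nearest pair, at 0.75 log2, and Stmn1 lay 2.04 from Stmn2, 1.93 from Stmn4 and 4.08 from Stmn3.

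The RefSeq promoter table (GRCm38.p6) held a window for 1 of the 4 genes, Stmn3. Its 250 bases before the start are shown because Stmn3 had the highest limb difference; capitals mark CG pairs.
Stmn3, chr2:181314501-181314750, minus strand: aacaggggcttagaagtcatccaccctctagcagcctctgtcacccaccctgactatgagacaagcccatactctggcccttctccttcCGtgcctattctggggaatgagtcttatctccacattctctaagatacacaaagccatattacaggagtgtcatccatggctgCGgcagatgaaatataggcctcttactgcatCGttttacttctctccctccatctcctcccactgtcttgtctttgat
This window had 48.8% G and C and 3 CG pairs, against medians of 52.4% and 6 over 32851 windows of the same length. It was searched on both strands for the left part of the REST element, TTCAGCACC, and for the TATA box, TATAAA. The Stmn3 window held no match to either run of letters, whereas 0.301% of all windows held the former and 12.4% the latter. With so few windows matched, the lack of an exact match to part of the element says little. Other forms of the element and bases outside this window were not searched.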

How the data were processed

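Scanner files for 4 arrays were used, 1 per group. Per the file headers, Agilent Feature Extraction 9.5.3.1 made the deposited intensity values, background-subtracted and detrended within each array on 2 scans combined, with substitute values for spots below background and none normalized between arrays. The deposited series table holds the same intensities rounded, within 0.0071 log2. Control spots and flagged spots were left out, log2 signal was taken minus the array's 75th percentile, and spots of a probe were averaged. Probes were named by accession (26933), symbol (5570) or synonym (894), and 7777 kept the file's name; a gene is its brightest probe.

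Members, lists and tests were chosen with earlier results of these data known. Named genes are the members, Rest, the 3 genes most like each member (1 is not reported here), and per microtubule or marker list up to 4 genes that differ most, by 1.5-fold or more, where both arrays measured them. Examples for brain against limb and some marker examples are left out for length. Mapt, Elavl3, Uchl1, Nefl, Map2, Gap43 and Emx2 were named after their values were seen. Other normalizations, background correction, probe rules and filters were tried. The multiplicative detrend used replicated probes per the file headers, so their spread may understate that of other probes. Python 3.11.15, numpy 2.4.6, pandas 2.3.3, R 4.3.3 and limma 3.58.1 were used.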

Additional observations from a re-analysis of the deposited data

Results flagged for a closer look

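The CKO minus WT difference had opposite signs in limb and brain for Stmn1 and Stmn4. For Stmn4 it was 0.74 log2 in limb and -0.06 in brain, 0.80 apart, and for Stmn1 0.05 and -0.10, 0.15 apart. Both brain values and the limb value of Stmn1 lie within 2 technical SDs of 0, but beyond 2 SDs of repeats at the same position (0.019 in brain, 0.021 in limb), and these differences between tissues were not tested. With quantile normalization, which gives equal ranks equal values, the Stmn1 brain difference was 0.0. At that probe 99.97% of genes lay below Stmn1 on both brain arrays, so this 0.0 reflects its rank only.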

How the results depend on the processing

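Of 100 stathmin values under alternative settings, 76 stayed within 1 technical SD and 0 changed sign, although the Stmn1 brain difference became 0 (0.0 log2) with quantile normalization. Some of the 76 could hardly move. The series table, with the same intensities rounded, gave 20 values, and all 20 stayed. The mean of all probes could not move Stmn3 and Stmn4, which have 1 probe each. With quantile normalization 10 of 20 stayed. Quantile normalization moved Stmn3 to at least 9.48 in limb and 0.27 in brain. It moved brain minus limb to 1.99 (Stmn1), 11.19 (Stmn3, bound) and 5.99 (Stmn4) in WT and to 1.94, 1.98 and 5.21 in CKO, and Stmn1's limb minus brain difference to 0.0452. Median centring moved the WT gap to 1.85, 6.72, 11.20 and 6.00 for Stmn1 to Stmn4. Normexp, with its offset of 50, moved Stmn2 and Stmn3 to 2.43 and at least 7.52 in limb. It moved them to 6.16 and at least 9.23 for the WT gap, and to 2.32 and at least 7.35 for limb minus brain. The mean of all probes moved Stmn2 to 0.0284 in brain and 3.20 for the CKO gap, and the Stmn1 gaps to 1.90 in WT and 1.74 in CKO. The causes were not tested.

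Genes at least 2-fold higher and lower in CKO numbered 460 and 398 in limb and 259 and 232 in brain. They were 262, 216, 150 and 88 when detected on both arrays, 934, 905, 721 and 670 with no filter, and 286, 144, 87 and 113 with normexp. Limma called 0 genes by genotype under each setting run, with 984 to 1499 at an unadjusted p under 0.05. No paired analysis was possible because each group has 1 array. No block for slide or scan was run. Signal near background limits Stmn3 in WT limb and the dim Stmn2 probe.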
